A study of Homo sapiens with 6 samples.

Results

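The La-related proteins are the RNA-binding proteins that share the La motif, and their human genes named LARP1, LARP1B, LARP4, LARP4B, LARP6, LARP7 and SSB were taken by gene symbol from a table of mRNA levels. These are 7 of the 19211 named genes in that table, and they have 15 of its 38438 transcripts. The same genes were looked up in the lists of RNA sites crosslinked to one of them, LARP1. The study compared HEK293T, a line from human embryonic kidney with the SV40 large T antigen, under growing conditions and after the mTOR kinase inhibitor PP242 at 2.5 µM (mTOR-inactive conditions), and the labels give no duration for this treatment. mRNA-seq was done on 2 biological replicates of each condition, in cells without 4-thiouridine. Endogenous LARP1 was assayed by PAR-CLIP, in which cells are fed 4-thiouridine, here 100 µM for 14 hr, and irradiated, here with 150 mJ/cm2 of ultraviolet light, so that the protein is crosslinked to the RNA it touches. There was 1 PAR-CLIP library of growing cells and 1 of PP242-treated cells, and PAR-CLIP values are therefore given without a test.

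La-related proteins use the La motif, together with a neighboring RNA recognition motif, to hold RNA, often at its 3’ end. SSB encodes La itself, which binds the uridine-rich 3’ ends of new RNA polymerase III transcripts and shields them, and LARP7 holds the 7SK RNA that keeps the transcription elongation factor P-TEFb inactive. LARP1 and LARP1B carry a further domain, called DM15, which in LARP1 contacts the capped 5’ end of mRNAs that begin with an oligopyrimidine tract. LARP4 binds poly(A) tails, both LARP4 and LARP4B bind poly(A)-binding protein, and LARP6 binds a stem-loop in collagen mRNAs.

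All 15 transcripts were detected in each of the 4 mRNA-seq libraries, and all passed the filter of a mean of at least 1 RPKM (reads scaled to transcript length and to the mapped reads of the library). By the steps that single reads leave in the values of short RNAs, 1 RPKM over 1 kilobase of transcript stood for 32.9 and 35.0 reads in the growing libraries and for 34.1 and 34.8 reads in the PP242 libraries. Of 9 markers listed for HEK293T, 6 had a mean of at least 1 RPKM, but PAX8, a kidney lineage factor, was at or near 0, and PAX2 and LHX1 stayed between 0.566 and 1.04 RPKM. The summed level of this list was 309 to 313 RPKM in growing and 339.4 to 339.6 RPKM in PP242 libraries, and without VIM, the intermediate filament vimentin, it was 98.7 to 100.7 RPKM in growing and 101.0 to 101.7 RPKM in PP242 libraries. Of the markers found in the table, 1 of 4 for fibroblasts (COL1A1) and 0 of 3 each for blood and liver reached a mean of 1 RPKM.

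The family spanned a 55.3-fold range of mRNA levels when each gene was represented by its most abundant transcript. This measure can be lower for genes with several transcripts, such as LARP4, since reads that matched several transcripts were divided among them. With the transcripts of each gene summed the range was narrower, from a mean of 210.4 RPKM (SSB) to 14.1 RPKM (LARP1B). SSB, on chr2:170648443-170668574 (GRCh37, + strand), was the highest. Its transcript NM_003142.4 measured 209.9 and 210.8 RPKM in growing libraries and 207.9 and 213.0 RPKM in PP242 libraries. LARP1, on chr5:154062546-154197165 (+), came next, and its transcript NM_015315.3 measured 54.0 and 55.4 RPKM in growing libraries and 53.5 and 53.7 RPKM in PP242 libraries. The SSB values lay at percentile 98.9 and the LARP1 values at percentile 94.4 of the transcripts that passed the filter, and in LARP1 both growing libraries were above both PP242 libraries.

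LARP4B, on chr10:852873-977761 (-), had 20.8 and 19.9 RPKM in growing libraries and 20.5 and 20.1 RPKM in PP242 libraries for NM_015155.1. LARP7, on chr4:113558233-113578852 (+), followed with NM_016648.2 at 18.0 and 17.9 RPKM in growing libraries and 17.8 and 18.2 RPKM in PP242 libraries. Its second transcript, NM_015454.1, was between 17.5 and 18.1 RPKM in the 4 libraries. In none of these 3 transcripts did the conditions separate.

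LARP6, on chr15:71121469-71146496 (-), was represented by NM_197958.1, with 9.95 and 10.0 RPKM in growing libraries and 8.45 and 9.14 RPKM in PP242 libraries. Its second transcript, NM_018357.2, had 6.30 and 5.53 RPKM in growing libraries and 5.72 and 5.46 RPKM in PP242 libraries. The PP242 libraries were thus the lower ones without overlap for the first transcript, and overlapped with the growing libraries for the second.

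LARP1B, the paralog of LARP1 on chr4:128982441-129144086 (+), was lower than LARP1 in every library. NM_032239.2 had 7.07 and 6.93 RPKM in growing libraries and 6.31 and 5.92 RPKM in PP242 libraries. NM_178043.1 had 4.53 and 3.99 RPKM in growing libraries and 4.00 and 4.05 RPKM in PP242 libraries, and NM_018078.2 had 3.51 and 3.17 against 3.37 and 3.62 RPKM. Only the first of these transcripts separated the conditions, with both PP242 libraries lower.

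LARP4, on chr12:50786166-50873787 (+), had the lowest most abundant transcript, NM_052879.4, with 3.85 and 3.96 RPKM in growing libraries and 3.56 and 3.86 RPKM in PP242 libraries. The 5 LARP4 transcripts had means between 3.44 and 3.81 RPKM over the 4 libraries, and each of them was at 94.1 to 95.1% of its growing mean in PP242. In 3 of the 5 both PP242 libraries lay below both growing libraries, which held for 30.0% of all transcripts tested. A further transcript, NM_001170803.1, carries no gene name in the table and belongs to LARP4 by its RefSeq accession, and its mean was 3.62 RPKM. Reads that matched several transcripts had been divided evenly among them, so the transcripts of a gene do not vary independently.

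**Figure D1:**
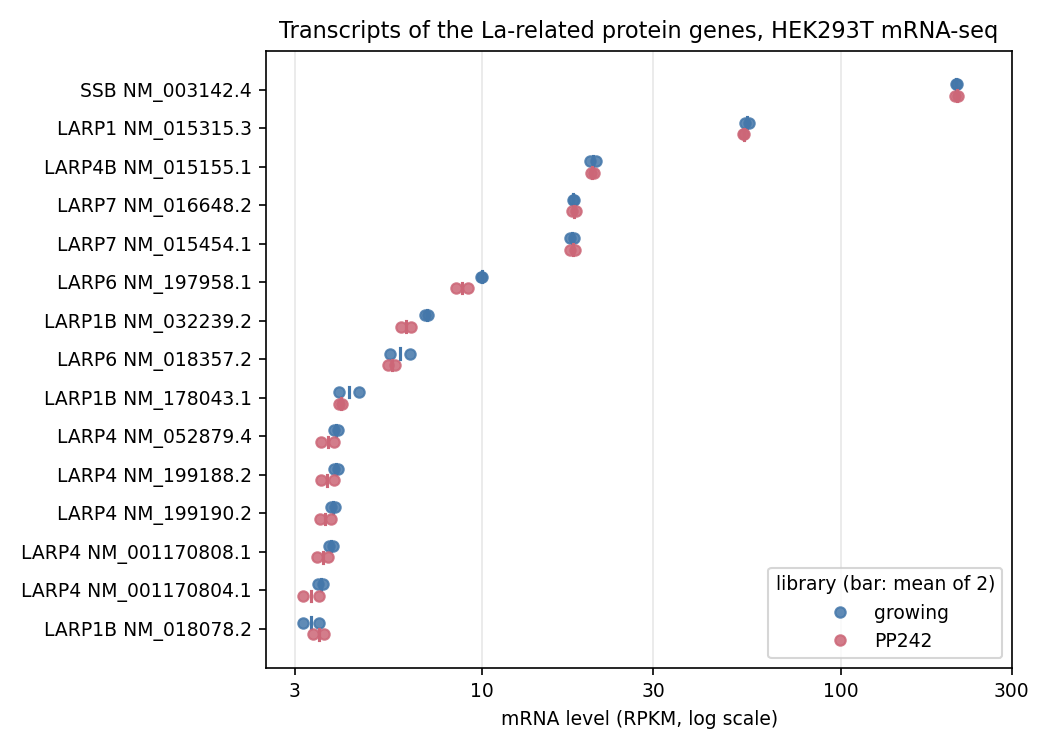
mRNA level in RPKM (log axis) of the 15 transcripts of the La-related protein genes. Points are single libraries, 2 per condition, and bars are the means of 2. The order from SSB, at about 210.4 RPKM, to LARP4 and LARP1B transcripts near 3.4 RPKM is the same in both conditions for the most abundant transcript of each gene.

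Each gene in the order SSB, LARP1, LARP4B, LARP7, LARP6, LARP1B and LARP4 was above the next one in every library, and the ranges of neighbors over the 4 libraries did not overlap. The lower part of this order depends on how a gene is represented. When the transcripts of a gene were summed, LARP7 (mean 35.8 RPKM) passed LARP4B (20.3 RPKM), and LARP4 (18.5 RPKM) passed LARP6 (15.1 RPKM) and LARP1B (14.1 RPKM). The summed ranges of LARP6, from 14.2 to 16.2 RPKM, and LARP1B, from 13.6 to 15.1 RPKM, overlapped. SSB and LARP1 kept the first and second places under both ways of counting.

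The comparison of PP242 with growing cells asks whether blocking mTOR changed the mRNA levels of the family. With limma on log2(RPKM + 1), 1 of the 15 transcripts passed an adjusted p of 0.05, and it was lower in PP242. Of all 21014 transcripts tested, 9.93% passed in either direction and 6.45% were lower. The median log2 difference (PP242 minus growing) was -0.06 over the family and -0.0013 over all transcripts. Both PP242 libraries lay below both growing libraries for 6 of the 15 transcripts, against 30.0% of all transcripts. The 6 include LARP4 isoforms that share reads. With 2 libraries in each group, an exact permutation test cannot give a two-sided p below 0.333 for any one transcript, and such a test was therefore not used.

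The transcript that passed was LARP1B NM_032239.2, which fell from 7.003 ± 0.0993 to 6.12 ± 0.278 RPKM (SD, n = 2 each), or to 87.3% of the growing mean. Its log2 difference was -0.17 (SE 0.0387, 95% interval -0.26 to -0.08, adjusted p = 0.0482 by limma). This call lay just inside the threshold and passed in 3 of 11 alternative analyses, in which its adjusted p by limma ranged from 0.0299 to 0.183. It was lost when any of the 4 libraries was left out, with adjusted p from 0.0544 to 0.164 by limma, under both alternative scalings and when the transcripts of LARP1B were summed (log2 difference -0.09).

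The other LARP1B transcripts did not pass the test. NM_178043.1 had a log2 difference of -0.06 (95% interval -0.20 to 0.07) and NM_018078.2 of 0.05 (-0.07 to 0.18). The ratio of NM_032239.2 to NM_018078.2 was 2.02 and 2.19 in growing libraries and 1.87 and 1.64 in PP242 libraries. These ratios did not overlap between the conditions, but the pair sets the transcript that passed against the only LARP1B transcript with a positive difference. No test was made of the ratios. The ratio of NM_032239.2 to NM_178043.1, at 1.56 and 1.74 against 1.58 and 1.46, did overlap.

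LARP6 NM_197958.1 had nearly the same difference as LARP1B, with 9.97 ± 0.0371 RPKM in growing and 8.80 ± 0.489 RPKM in PP242 cells (SD, n = 2 each). Its log2 difference was -0.16 (SE 0.0410, 95% interval -0.26 to -0.06), and its adjusted p of 0.0606 by limma missed the threshold. It passed with a filter of at least 5 RPKM, at an adjusted p of 0.0385, and without replicate 2 of PP242, at 0.0414, both by limma. The second LARP6 transcript had a log2 difference of -0.07 with an interval of -0.21 to 0.08.

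For LARP1 the log2 difference was -0.03 (SE 0.0246, 95% interval -0.09 to 0.03, adjusted p = 0.479 by limma), from 54.7 ± 0.955 to 53.6 ± 0.173 RPKM (SD, n = 2 each). The interval for SSB was from -0.05 to 0.05, that for LARP4B from -0.08 to 0.07, and those for both LARP7 transcripts lay between -0.07 and 0.08. Each of the intervals of these 4 genes lay within 0.1 of 0 on the log2 scale. The 5 LARP4 transcripts had log2 differences of -0.07 to -0.06, and their intervals all held 0.

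**Figure D2:**
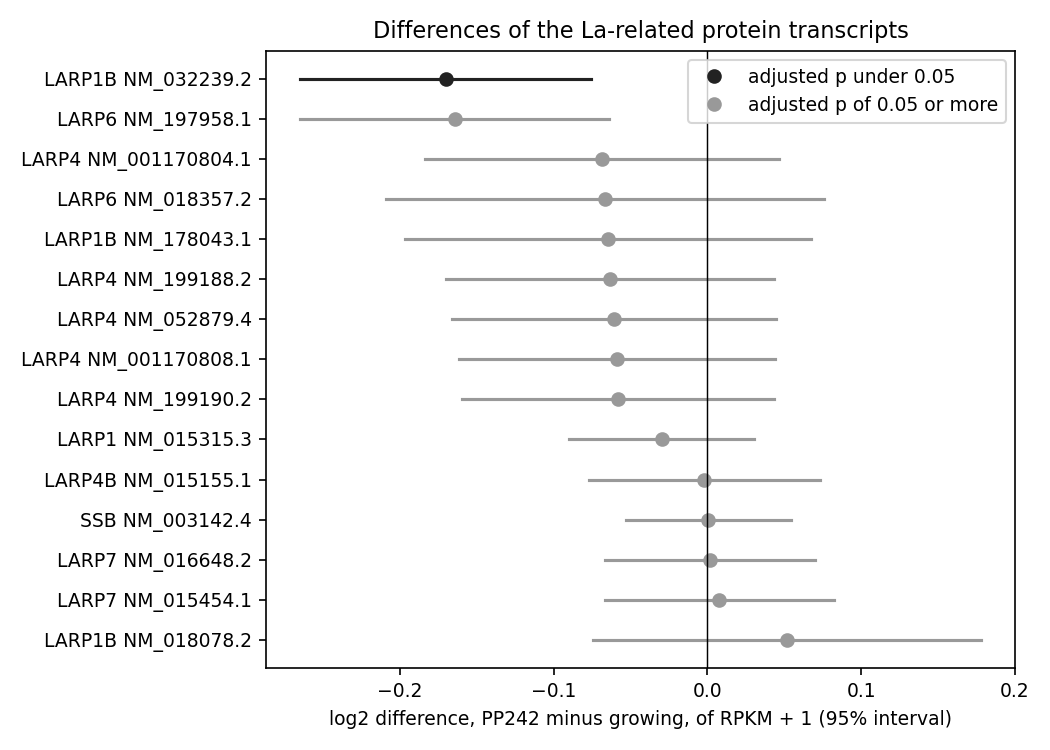
Log2 difference, PP242 minus growing, of RPKM + 1 for the 15 transcripts, with 95% intervals from limma. LARP1B NM_032239.2, at -0.17, is the transcript drawn in black, since its adjusted p was under 0.05, and the interval of LARP6 NM_197958.1 also lies below 0.

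The transcripts of other genes whose levels in the 4 libraries were most like those of LARP1, by Euclidean distance of log2(RPKM + 1), were SBDS, a ribosome maturation factor (distance 0.0264), PSAT1, an enzyme of serine synthesis (0.0353), and ARF3, a small GTPase (0.0459). Those nearest to LARP1B NM_032239.2 were ATL3 (0.0365), NCS1 (0.0409) and IL17RB (0.0562).

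The PAR-CLIP lists held 1 site on the family in each condition. In the growing library it lay on LARP1B, and in the PP242 library on SSB. LARP1, LARP4, LARP4B, LARP6 and LARP7 had no listed site in either library, so LARP1 crosslinking to its own mRNA was not seen in these lists. Of the 10799 mRNA genes with at least 1 RPKM, 10.3% had any listed site in the growing library and 11.2% in the PP242 library, next to 1 of 7 family genes in each. With a minimum of 1 RPM (reads scaled to the mapped reads of the library, in the same unit as RPKM but without length), the shares were 1.75% and 3.83%, next to 0 of 7 and 1 of 7. The median listed row had 0.0052 RPM in the growing library and 0.0173 RPM in the PP242 library. The shares with any listed site thus include many rows of very low value.

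The SSB site covered nucleotides 1665 to 1690 of NM_003142.4, a stretch of 26 nucleotides marked as 3’UTR, and had 592 RPM in the PP242 library. No SSB site was listed in the growing library, while SSB mRNA was at 209.9 and 210.8 RPKM in the mRNA-seq libraries of growing cells. Scaled by the authors to the RPKM of the transcript, per kilobase, the site had a value of 2815. Among the 304 distinct mRNA 3’UTR sites of at least 1 RPM in the PP242 library it ranked at position 101 by RPM, above the median of 342 RPM, and at position 199 after division by RPKM, below the median of 8312. The site thus was in the upper part of the list by reads and in the lower part per transcript. No other row of the list had the same RPM. T-to-C conversions are the mark that crosslinked 4-thiouridine leaves in reads. The deposited T-to-C value is a fixed multiple of RPM for most sites of the library, and that of SSB reached 99.7% of this usual value. A site far below the usual value has little of this crosslink mark for its reads.

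Sites were more frequent among mRNAs of the abundance of SSB than among all mRNA genes. Of 154 genes within 1.5-fold of its RPKM, 17 (11.0%) had a site of at least 1 RPM in the growing library and 46 (29.9%) in the PP242 library. For LARP1 the corresponding group held 878 genes, of which 34 (3.87%) had such a site in the growing library and 60 (6.83%) in the PP242 library. LARP1 mRNA was among those without one.

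The LARP1B site covered 13 nucleotides, 2868 to 2880, in the coding sequence of NM_018078.2, the transcript with the lowest mean RPKM of the family over the 4 libraries. Its value was 0.0012 RPM. A single whole read would have this RPM only in a library of 833000000 mapped reads, and 73 rows on 51 genes carry the same RPM in that list. Of the 3948 rows listed for the growing library, isoform copies included, 781 had a value this low or lower. The source of such values was not tested, and this row is given here as listed, not as LARP1 binding to LARP1B.

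**Figure D3:**
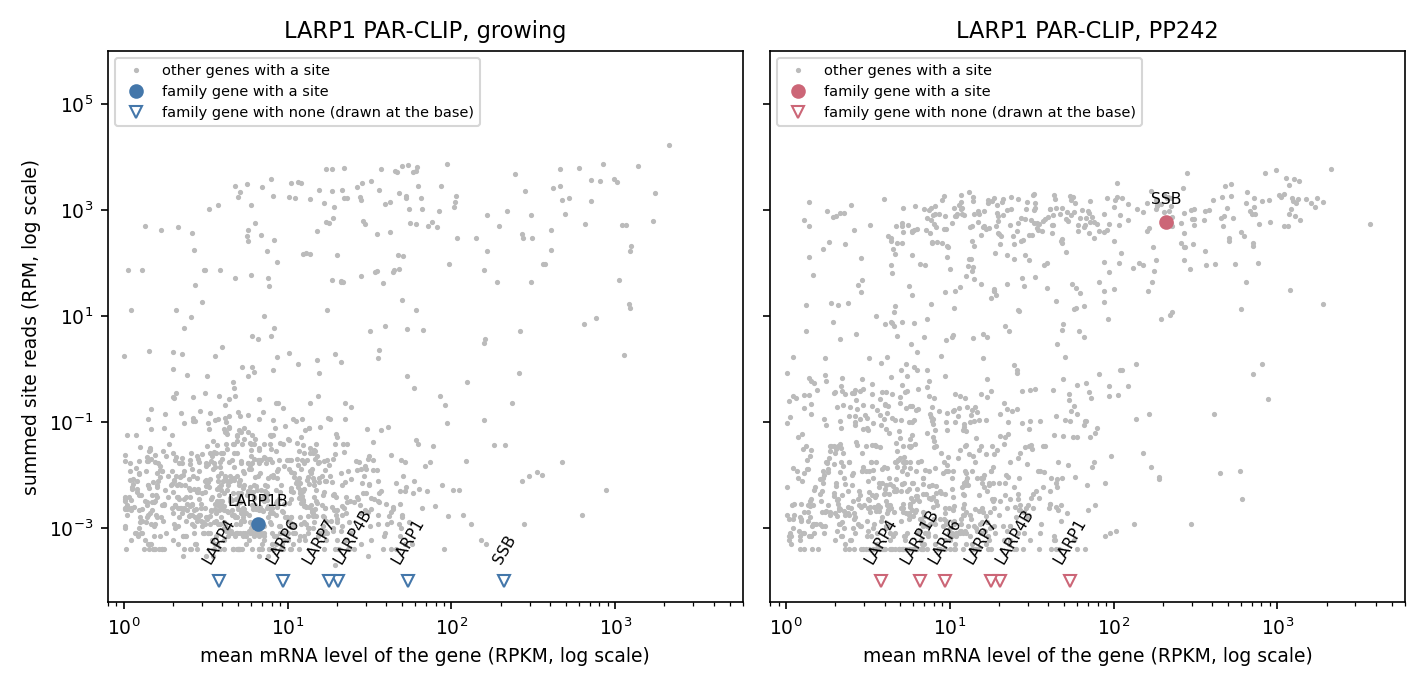
Reads in LARP1 sites, summed per gene in RPM (log axis), against the mean mRNA level of the gene in RPKM (log axis), for mRNA genes of at least 1 RPKM in the growing (left) and PP242 (right) PAR-CLIP libraries. Gray points are other genes with a site, filled circles are family genes with a site, and open triangles at the base are family genes without one; SSB, at 592 RPM, lies in the upper band of the PP242 library and LARP1B, at 0.0012 RPM, in the lower band of the growing library.

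The RNAs that La and the Ro protein are known to hold were among those listed for LARP1. Of 12 genes of this list found in the files, 2 had a site of at least 1 RPM in the growing library and 6 in the PP242 library. The 2 were RN7SL1 and RN7SL2, near-identical RNAs that share reads, and both are also among the 6. Over all 3366 noncoding RNA genes in the files the shares with such a site were 1.63% and 2.79%, and the list was written by hand with earlier results of these data known. In the mRNA test 5 genes of the list had 9 transcripts. The list thus does not hold single-transcript RNAs alone, and the noncoding background is not fully matched to it. RNY4, a small cytoplasmic RNA that binds La at its 3’ end and Ro in its stem, had sites in the PP242 library alone, with 1408 RPM over nucleotides 1 to 29 and 1783 RPM over nucleotides 57 to 96. Both ends of this RNA of 96 nucleotides were thus covered. The gene lies on chr7:148660407-148660502 (GRCh37, + strand). The sequences are shown because the second site reaches the terminal run of uridines that La recognizes, given here in capitals as T, and only its last 30 bases are printed:

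RNY4 nucleotides 1 to 29: ggctggtccgatggtagtgggttatcaga

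RNY4 nucleotides 67 to 96: ccccccactgctaaatttgactggcTTTTT

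The T-to-C value reached 99.7% of the usual one for the first RNY4 site and 35.1% for the second. RNY5, another Y RNA, had 1519 RPM over nucleotides 1 to 25 in the PP242 library, and no site in the growing library. VTRNA1-2, a vault RNA named here after its value was seen, had 1469 RPM in the PP242 library. In the mRNA-seq table RNY4 and RNY5 were listed at 0 in 3 of the 4 libraries each, and RNY4 in both PP242 libraries. The RNY5 level in PP242, a mean of 0.1744 RPKM, rests on 1 library, so the site reads of these RNAs are not set against their levels here.

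RN7SL1 and RN7SL2, the RNAs of the signal recognition particle, had sites in both libraries, with 564 and 880 RPM in the growing and 2255 and 2837 RPM in the PP242 library. Their mRNA-seq levels were between 33.7 and 38.0 RPKM in growing and between 37.7 and 45.7 RPKM in PP242 libraries. In the growing library their T-to-C values were 1.41% (RN7SL1) and 1.36% (RN7SL2) of the usual one. In the PP242 library they were 68.5% (RN7SL1) and 63.7% (RN7SL2) in the same sites, which hold most of the reads, and 1.92% in a second site at nucleotides 172 to 195 that is listed with the same 434 RPM on both RNAs. The part of this difference in the RPM of both libraries was not tested. RMRP, also named after its value was seen, had 1.20 RPM in the PP242 library, with 2.95% of the usual T-to-C value. RN7SK, the RNA that LARP7 holds, had no listed site, and its level was between 3.66 and 4.57 RPKM in the 4 mRNA-seq libraries. The mRNA-seq levels of RN7SK, RN7SL1 and RN7SL2 are given as listed and are not set against their sites.

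In the list of 7SK particle and P-TEFb genes, 1 of the 12 transcripts tested (8.33%) passed in the comparison of mRNA levels, near the 9.93% of all transcripts. It was CCNT1, the cyclin of P-TEFb, which rose from 11.3 and 11.6 RPKM in growing libraries to 13.3 and 14.0 RPKM in PP242 libraries (log2 difference 0.23, SE 0.0349, adjusted p = 0.0156 by limma). The median log2 difference of this list was -0.01. No gene of this list had a site of at least 1 RPM in either PAR-CLIP library, where 1.75% (growing) and 3.83% (PP242) of all mRNA genes had one.

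Among the genes of polymerase III, its factors and tRNA 3’ end processing, whose products make the RNAs that La binds, 6 of 53 transcripts (11.3%) passed, 1 higher and 5 lower, and this share is near the 9.93% of all transcripts. POLR3F, a subunit of polymerase III, fell from 12.7 and 13.5 to 10.3 and 10.5 RPKM (log2 difference -0.30, SE 0.0376, adjusted p = 0.00864 by limma). POLR3G, a subunit of the form of the enzyme found in stem cells and tumors, fell from 9.92 and 10.0 to 8.36 and 8.46 RPKM (-0.22, adjusted p = 0.0103 by limma). POLR3GL, the alternative to POLR3G in the enzyme, rose from 12.8 and 12.3 to 14.3 and 13.9 RPKM (0.16, adjusted p = 0.0365 by limma), and GTF3C4, a subunit of transcription factor TFIIIC, had a log2 difference of -0.17 (adjusted p = 0.0150 by limma). The median log2 difference of the list was 0.01. Sites of at least 1 RPM lay on MAF1, the repressor of polymerase III (416 RPM), and on POLR3E (187 RPM) in the PP242 library, and on CRCP (74.7 RPM, with 0.0303% of the usual T-to-C value) in the growing library.

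The list of poly(A)-tail binding and deadenylation genes includes partners of LARP4 and LARP4B, but not all of its genes are such partners. In this list 8 of 27 transcripts (29.6%) passed, 4 higher and 4 lower, next to 9.93% of all transcripts. Several of the 8 are isoforms that share reads, and by gene 3 were higher and 2 lower of 16 tested. The median log2 difference of the list was 0.03. TOB2, which recruits the deadenylase to poly(A)-binding protein, fell from 14.9 and 14.4 to 10.6 and 10.4 RPKM (log2 difference -0.44, SE 0.0313, adjusted p = 0.00177 by limma). The 3 transcripts of its relative TOB1 fell as well, with log2 differences from -0.27 to -0.21. The transcripts that rose, named here after their values were seen, were 2 of PAIP2 (0.16 and 0.17) and 1 of PAIP2B (0.20), both inhibitors of poly(A)-binding protein, and that of PABPC1 (0.09), with adjusted p from 0.0217 to 0.0488 by limma. GNB2L1, which encodes the ribosome-associated LARP4 partner RACK1, had 3978 RPM on its 3’UTR in the PP242 library, and its 5’UTR carried 1.85 RPM under growing conditions. PABPC1, the main cytoplasmic poly(A)-binding protein, had 1675 RPM in its 5’UTR site in the PP242 library and 0.0377 RPM in the same site in the growing library. CNOT7, a deadenylase, had 998 RPM in the PP242 library, and CNOT1, its scaffold, had 67.1 RPM in the growing library with 0.0102% of the usual T-to-C value.

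Of the list of LARP6 targets and partners, 2 of 10 transcripts (20%) passed, both higher. Of all transcripts, 9.93% passed in either direction and 3.48% were higher. VIM rose from 212 and 209.8 to 238 and 239 RPKM (log2 difference 0.17, SE 0.02001, adjusted p = 0.00704 by limma), and MYH9, a nonmuscle myosin heavy chain, rose from 49.8 and 47.7 to 57.0 and 57.5 RPKM (0.23, adjusted p = 0.00887 by limma). The median log2 difference of the list was 0.07. VIM also had 1707 RPM in a 3’UTR site of the PP242 library and none in the growing library. VIM is also one of the HEK293T markers above. The collagen targets themselves were low in these cells, with COL1A1 at 1.84 and 1.79 RPKM in growing and 1.76 and 1.80 RPKM in PP242 libraries and COL3A1 between 0.396 and 0.481 RPKM.

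Of the genes of mTORC1, its targets and the cap complex, which act with LARP1, 2 of 30 transcripts (6.67%) passed, a share below the 9.93% of all transcripts. MTOR rose from 22.5 and 22.6 to 24.5 and 24.9 RPKM (log2 difference 0.13, adjusted p = 0.0368 by limma), and EIF4EBP1, which encodes the inhibitor 4E-BP1 of cap binding, fell from 81.8 and 78.7 to 73.4 and 68.3 RPKM (-0.18, adjusted p = 0.0462 by limma). The median log2 difference of the list was -0.02. In the PP242 library RPS6KB2, a kinase of the S6K family, had 1026 RPM in its coding sequence, and EIF4EBP1 had 296 RPM in its 3’UTR. Of the 13 genes of this list 0 had any listed site in the growing library and 4 had one in the PP242 library. Of all mRNA genes 10.3% and 11.2% had one. Among so few genes a count of 0 is near that share and is not read as a result. The sites on EIF4E and RPS6KB1 in the PP242 library had at most 0.0094 RPM.

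None of the 9 transcripts of the La and Ro list passed by limma, while 1 had an unadjusted p under 0.05, and 2 (RN7SL1 and RN7SL2, near-identical RNAs that share reads) passed when replicate 2 of PP242 was left out. Over these 6 lists 19 transcripts passed, and with 1 library left out between 6 and 8 of the 19 passed. TOB2, MYH9, VIM, POLR3F and POLR3G passed whichever library was left out, with adjusted p of at most 0.0479 by limma. MTOR, GTF3C4, POLR3GL, PABPC1, PAIP2B and the PAIP2 transcript with a log2 difference of 0.16 did not pass when any library was left out. CCNT1 passed in 2, and EIF4EBP1 and each TOB1 transcript in 1, of the 4 cases.

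**Figure D4:**
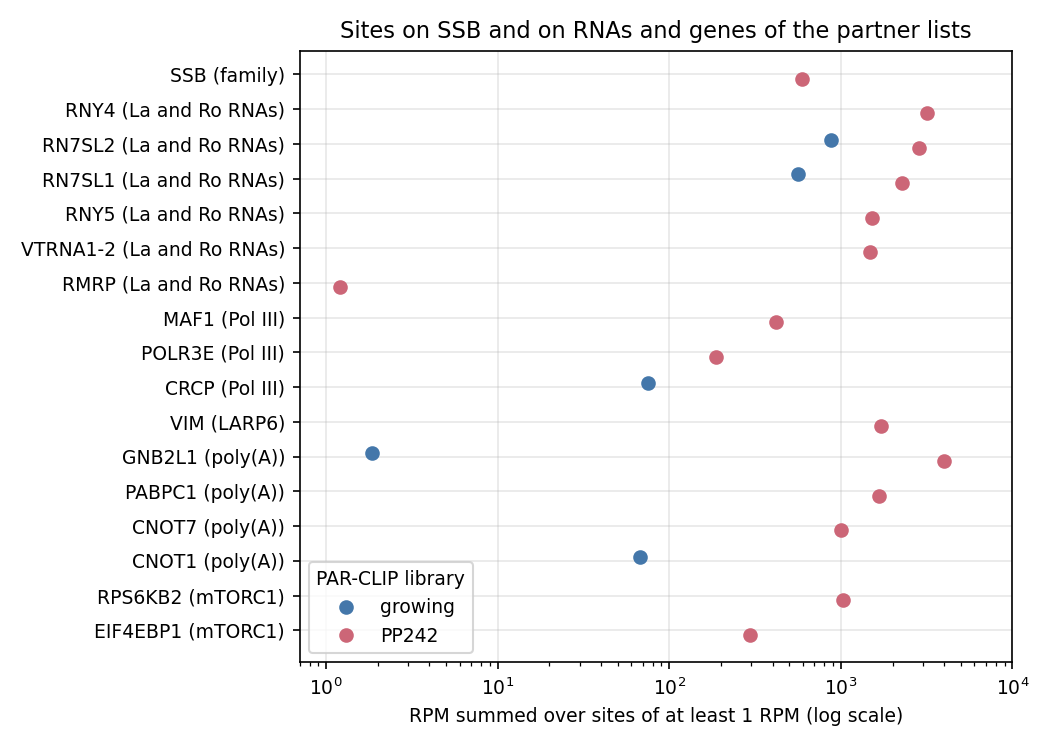
RPM summed over LARP1 sites of at least 1 RPM (log axis) for SSB and for the genes of the partner lists that had such a site, in the growing and PP242 PAR-CLIP libraries (1 each). SSB, at 592 RPM, has a point for PP242 alone, while RN7SL1, RN7SL2 and GNB2L1 have points for both libraries. A gene without a point for a library had no such site in it. In the growing library the T-to-C values of CNOT1, CRCP, RN7SL1 and RN7SL2 were at most 1.41% of the usual one, and that of GNB2L1 was 100.0%. That of RMRP in the PP242 library was 2.95%.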

How the data were processed

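LARP1 PAR-CLIP (1 library per condition) and mRNA-seq (2 per condition) were used. Per the study's methods, the authors removed linkers and mapped reads to the GRCh37 transcriptome with Bowtie, allowing 3 mismatches. Of the mRNA-seq reads the authors used only perfect matches, divided reads with several matches evenly, and deposited RPKM per transcript and library. PAR-CLIP reads with at most 2 T-to-C mismatches were joined into clusters by the authors, who required 1 converted read in each and deposited RPM per site, a ratio of RPM to RPKM, and a T-to-C column. The paper also names an RPM threshold, set from its data, for its binding sites, and its text gives no value for it. The lists used here hold 3948 (growing) and 3947 (PP242) rows, down to 0.0002 and 0.0003 RPM. Whether each row passed that threshold was not tested. The methods do not describe this deposited column, which was treated as a score; its most frequent multiple of RPM was 25.8 (growing) and 28.3 (PP242). The total reads of the PAR-CLIP libraries were not used here, and the counting error of sites was not computed. The lists of sites hold positions, RPM and marks for regions, but no sequences.

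The mRNA-seq table holds 39711 lines, of which 1273 repeats with equal values were dropped. Every per-sample column was used. Isoform copies of a site were counted once per gene. For mRNA levels, limma (version 3.58.1, R version 4.3.3, lmFit with a trended eBayes) was run on log2(RPKM + 1) of the 21014 transcripts whose mean reached 1 RPKM, since RPKM are not counts. Its p-values were adjusted by Benjamini-Hochberg, and 0.05 was the limit. A fold change on this scale understates that of low transcripts. Simulated data were used to test this step. Other steps used Python 3.11.15, numpy 2.4.6, pandas 2.3.3 and matplotlib 3.10.9. Gene positions come from GENCODE release 44 on GRCh37. The members and the partner lists were chosen with earlier results of these data known, so the calls are a description. Named were all members and, of each list, up to 4 transcripts that passed and up to 4 genes whose sites reached 1 RPM, by size; the 3 transcripts nearest to LARP1 and to the member transcript with the largest difference; and a few genes as stated. Alternatives were a pseudocount of 0.1, no filter, a filter of 5 RPKM, median-ratio scaling, quantile normalization, a replicate block, leaving out each library, sums per gene, and for sites a minimum of 1 RPM, every row and division by RPKM. Protein sequences were not used here. The sequences of the SSB and LARP1B sites are not printed, since the RefSeq versions that number them were not used here, and the SSB site lies beyond the end of the annotated transcript of 1650 nucleotides.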

Additional observations from a re-analysis of the deposited data

How the results depend on the processing

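Each limit below concerns 2 libraries per condition of mRNA-seq and 1 of PAR-CLIP, so that no difference in sites has a replicate check. Counts are of transcripts that passed limma, and with 1 library left out the lone library of a condition was assumed to vary like the others. Of the 150 member values under alternatives, 137 kept their direction and 5 passed. The number of family transcripts that passed, 1 of 15, was 0 with no filter, median-ratio scaling, quantile normalization or sums per gene, 2 with a filter of 5 RPKM, and 0 to 1 with 1 library left out. The calls over all transcripts, 2087, fell to 120 with no filter, and to 863 to 1060 with 1 library left out. In the lists, with no filter, 0 transcripts passed for the 7SK, mTORC1, LARP6 and polymerase III lists and 1 for the poly(A) list. With a filter of 5 RPKM 4 passed for poly(A) and 5 for LARP6, with sums per gene 5 passed for poly(A), and median-ratio scaling and quantile normalization each left 1 for mTORC1. With 1 library left out, the counts were 0 to 1 (7SK and mTORC1), 1 to 4 (poly(A)), 0 to 2 (La and Ro) and 2 to 3 (polymerase III), and 2 for LARP6. The causes were not tested.

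Differences near 0 changed sign. Under quantile normalization LARP4B became 0.0208 and SSB -0.0049. With 1 library left out, LARP1B NM_018078.2 ranged from -0.0043 to 0.1078, LARP1B NM_178043.1 from -0.1393 to 0.0095, LARP4B from -0.0301 to 0.0263, LARP6 NM_018357.2 from -0.1467 to 0.0139, LARP7 NM_015454.1 from -0.0142 to 0.0295, LARP7 NM_016648.2 from -0.0155 to 0.0189 and SSB from -0.0167 to 0.0178. The replicate block gave 1 family call and 2135 calls in all and changed no call of a family transcript. Same-numbered libraries deviated together with a correlation of 0.0401 over transcripts, so the numbers were not taken as pairs.

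With a minimum of 1 RPM the LARP1B site fell out (0 RPM, and 0 members in the growing library), and division by RPKM gave 0.359 for LARP1B and 2815 for SSB. With transcripts summed, the ranks by mRNA level became LARP7 3, LARP4B 4, LARP4 5, LARP6 6 and LARP1B 7. Counting error was not computed for single sites.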
